A study of Mus musculus with 8 samples.

Results

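The genes described here are 40 that are known to mark endothelial cells, the cells that line blood vessels. They were chosen by name, with earlier results of these data known. All 40 had a value among the 19938 genes measured, each from 1 probe set. The arrays hold RNA of primary smooth muscle cells taken from the aorta of C57Bl6 mice, at passage 3 to 4, in DMEM containing 10% FCS, after 24 h of culture with or without treatment. Of the 8 Affymetrix arrays, 4 are from cultures without addition (control 1 to 4) and 4 from cultures given 100 nM jasplakinolide (jasplakinolide 1 to 4), a compound that stabilises actin filaments. The labels give no genotype, age or purity of the cultures, and do not say whether replicates were separate cultures or animals, so the p-values measure the spread between these arrays, which may be technical. Levels are log2 expression values. The comparison asks which transcripts differ between cultures with and without the compound, and here whether those of endothelial identity do.

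Endothelial cells hold their identity through transcription factors of the ETS family, such as ERG and FLI1, and of the SOXF group, SOX7, SOX17 and SOX18, which act together on the same vascular enhancers. Their products build the endothelial junction around VE-cadherin, the receptors that read flow, lipids and peptides on the vessel wall, and secreted factors that act on clotting and vessel tone. In the aorta these cells form the intima, next to the smooth muscle of the media.

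The median of an array was between 7.30 and 7.39 log2, and the correlation of any pair of arrays between 0.991 and 0.997 over probe sets. In all, 154 of 19938 genes passed the test (limma, adjusted p under 0.05), which is 0.772%, with 67 lower and 87 higher. This split was 167 lower and 129 higher where the arrays were quantile normalized once more, and 168 and 129 where cyclic loess was used. Jasplakinolide 4 and control 2 stood apart from the rest of their groups: jasplakinolide 4 was the lowest of the 4 treated arrays for 34.2% of all genes, and control 2 the lowest control for 32.1%. Values without jasplakinolide 4 stand beside the larger differences and the list medians that it moved most.

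Transcripts of endothelial identity were bright in cultures labelled as smooth muscle. Probe sets bind with different strength, so the genes are put in no order by level. As a reference for dim probe sets served 1027 olfactory receptor genes (median 4.95 log2, 95th percentile 6.76, 99th percentile 7.55), some of which these cells may use. Above that 99th percentile lay 36 of the 40 genes, against 54.8% of all genes. Clec14a, Aplnr and Lyve1 were between both percentiles, and Mmrn1, which encodes multimerin-1 of platelets and lymphatic endothelium, was below them at 4.63 ± 0.08 in control (SD, n = 4). Among the brightest 10% of all genes were 18 of the 40. Cdh5, which encodes VE-cadherin, the adhesion molecule of endothelial junctions, was at 13.21, 13.16, 13.14 and 13.15 log2 on control 1 to 4 and at 13.13, 13.13, 13.08 and 13.01 on jasplakinolide 1 to 4. Emcn, the sialomucin endomucin, lay between 13.37 and 13.48 in control and between 13.31 and 13.44 with jasplakinolide.

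The labelled cell type was present by its markers too. All 8 contractile smooth muscle markers were above the 95th olfactory percentile and 7 above the 99th, as were 10 of 10 endothelial markers at both. Over all genes 68.8% were above the 95th and 54.8% above the 99th, so counts near these shares do not tell that a cell type is present. Of markers of other cell types, 2 of 5 of fibroblasts, 3 of 5 of macrophages, 3 of 5 of pericytes, 1 of 4 of lymphatic endothelium and 0 of 4 of epithelium were above the 99th. Of a longer list of 10 epithelial genes, however, 4 were above it. The brightest were the keratins Krt18 (11.80 ± 0.15 in control, SD, n = 4) and Krt19 (9.74 ± 0.21). Prox1, the transcription factor that defines lymphatic endothelium, was at 5.95 ± 0.13 in control (SD, n = 4), below the 95th. The arrays measure mixed RNA, so fewer cells of a type and less RNA per cell cannot be told apart in any result given here.

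**Figure D1:**
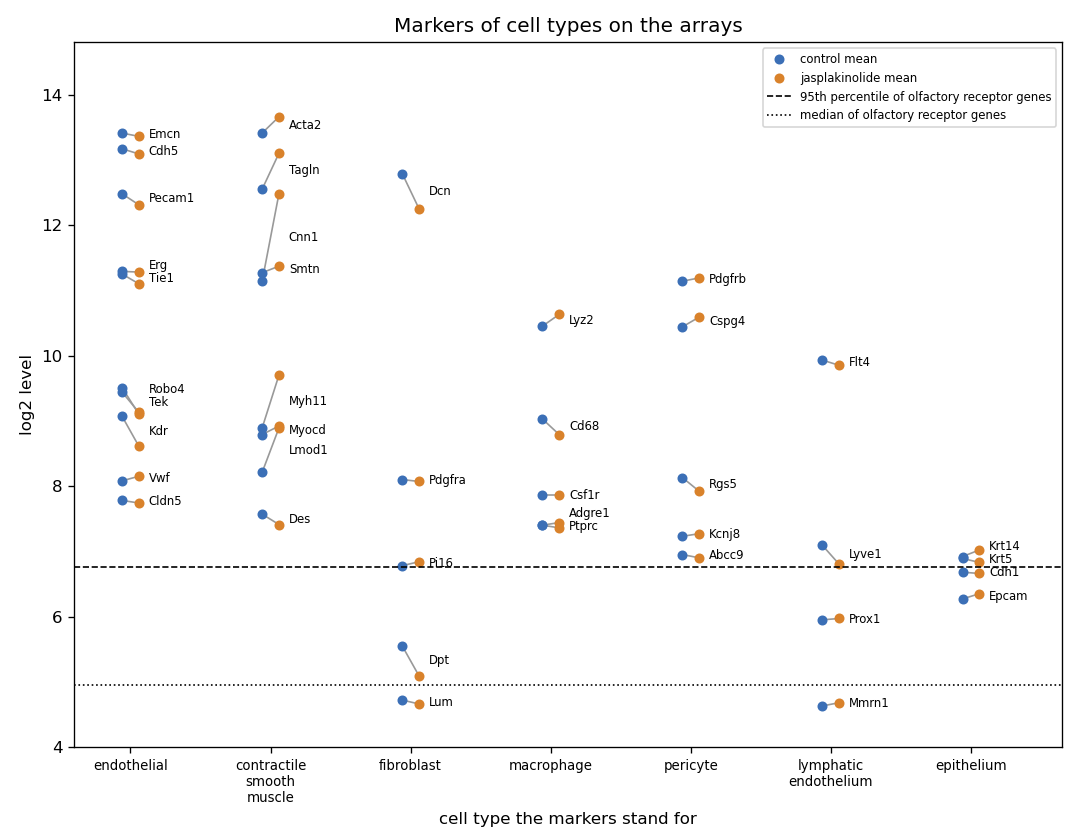
Mean log2 level in control (blue) and with jasplakinolide (orange), n = 4 arrays each, of markers grouped by the cell type they stand for, with lines joining the means of a gene. The dashed and dotted lines are the 95th percentile (6.76) and the median (4.95) of 1027 olfactory receptor genes. Endothelial and contractile smooth muscle markers all lie above the dashed line.

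With jasplakinolide 4 of the 40 genes fell, none rose and 36 did not pass the test. Over all genes 0.336% passed as lower and 0.436% as higher. The 4 were Ldb2, Rasip1, Robo4 and Ramp2, between 1.43-fold and 1.21-fold lower. With the replicate number as a block, 8 fell and none rose (with the block 1.89% of all genes passed and 1.08% fell). They were the same 4 and Cyyr1, Sox18, Lyve1 and Fli1. The labels do not state a pairing by replicate number, and it was inferred from these same arrays. The 4 treated arrays lay below all 4 control arrays for 13 of the 40, against 3.29% of all genes and 5.18% of the genes above the 99th olfactory percentile, and above them for 1, Cd93, against 3.62% of all genes (6.91% did not overlap in either direction). The mean was lower with jasplakinolide for 30 of the 40, for 43.6% of all genes and for 49.7% of those above the 99th olfactory percentile, and the median log2 difference was -0.11, against 0.012 over all genes. At an unadjusted p under 0.05, 11 were lower and 1 higher, against 4.71% and 4.16% of all genes. When 1 array was left out, the count that fell was 4 for control 1, 2 for control 2, 0 for control 3 and for control 4, 0 for jasplakinolide 1 and for jasplakinolide 2, 2 for jasplakinolide 3 and 1 for jasplakinolide 4 (limma; 11 to 16 lower at an unadjusted p under 0.05 in these fits, against 3.52% to 6.18% of all genes). The count over all genes that fell, 67 with every array, was 83 without control 2 and 8 to 20 without any other array. Among the brighter 50% of genes 7 of 35 fell, where 1.41% of the genes tested did.

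**Figure D2:**
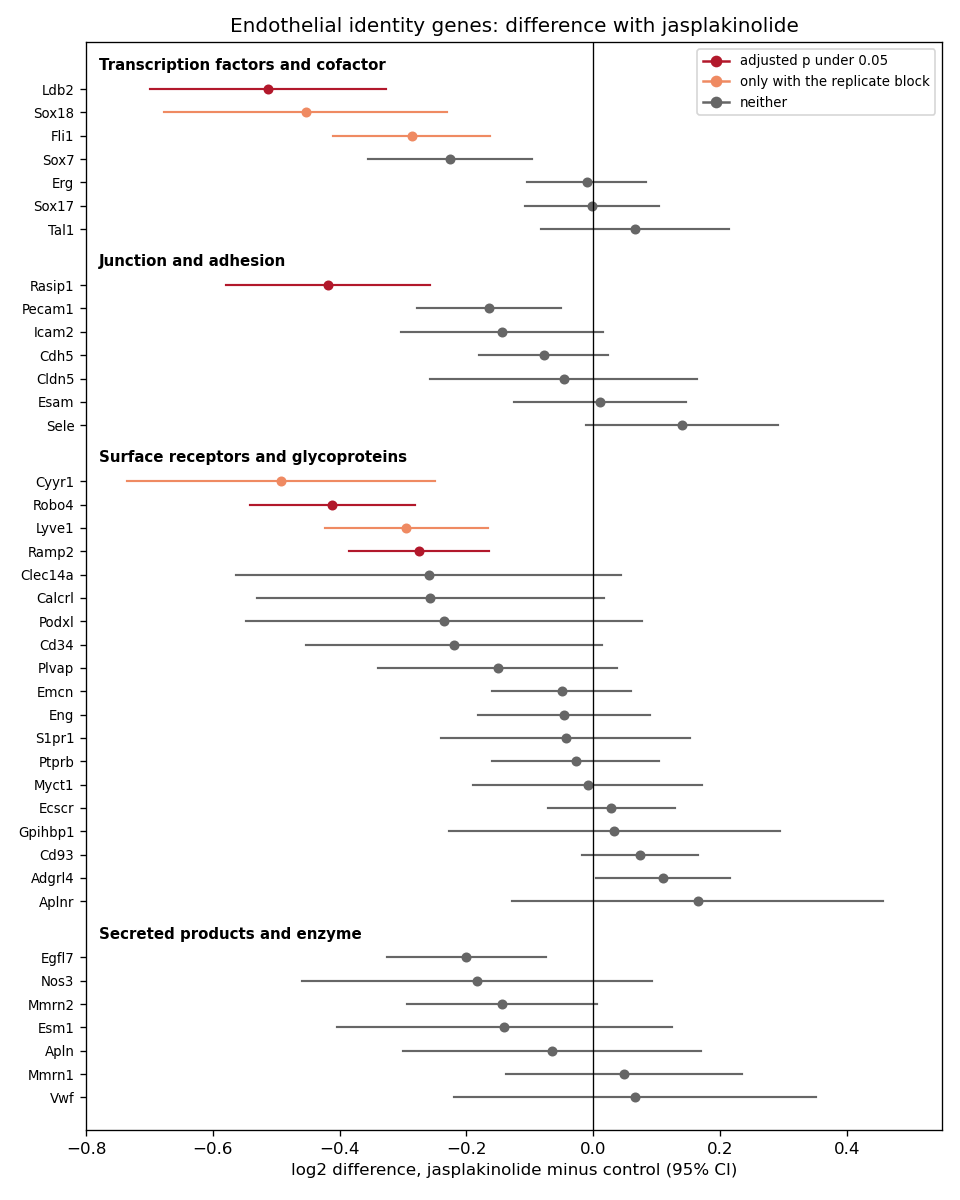
Log2 difference (jasplakinolide minus control) of each of the 40 genes with its 95% confidence interval, grouped by role. The 4 genes in dark red passed the test, the 4 in orange passed only with the replicate block, and the rest are in grey. Of the grey intervals those of Sox7, Pecam1 and Egfl7 lie below 0 and that of Adgrl4 above it.

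Contractile smooth muscle genes and genes of mitosis moved in the same comparison. Of 19 contractile genes 10 rose and none fell, with a median log2 difference of 0.55. The largest were those of Kcnmb1, a subunit of the BK potassium channel (2.0 ± 0.13, SE), the actin-binding calponin Cnn1 (1.34 ± 0.07), Synpo2 (0.98 ± 0.15) and the smooth muscle actin Actg2 (0.93 ± 0.10). Over the list, the summed level of the 19 on the linear scale lay at 37310 to 38080 in control and at 52540 to 57050 with jasplakinolide. Of 20 mitosis genes 11 fell and none rose, with a median of -0.31, and a summed level of 36480 to 40130 in control and 30130 to 32450 with jasplakinolide. Cdc20, which activates the ligase that starts anaphase, fell by 0.39 and Cenpe, a kinetochore motor, by 0.40. With 1 array left out Cdc20 passed in 7 fits of 8, and none of the other 10 in more than 2. The summed linear level of the 40 endothelial genes was 115500 to 123900 in control and 101000 to 119400 with jasplakinolide, so that the groups overlapped, while that of the 10 endothelial markers was 32820 to 33880 and 29530 to 31970. Of 12 macrophage and 10 fibroblast genes none passed (limma; 4 and 2 at an unadjusted p under 0.05), and their summed levels were 3492 to 3799 and 10640 to 14030 in control and 3695 to 3883 and 9389 to 11600 with jasplakinolide. Their brightest members were Lyz2 and Cd68, and Dcn and Col1a1, and Cd68 (-0.24 ± 0.07, SE) and Dcn (-0.54 ± 0.12) fell with the replicate block (adjusted p = 0.0424 and 0.0134, and 0.226 and 0.0916 without it). Lyz2 had all treated arrays above all controls, at 0.17 ± 0.05 (adjusted p = 0.211), and Col1a1 differed by 0.056 ± 0.102. The mean was higher with jasplakinolide for 8 of the 12 macrophage and 5 of the 10 fibroblast genes. Of 10 pericyte genes 1 rose, Mcam, whose product also marks endothelial cells, by 0.31 ± 0.05 (SE). It did not pass once any array was left out. The summed level of the 10 ran from 8832 to 10100 in control and from 9824 to 12030 with jasplakinolide. No marker of these lists was at 0, as these values have no 0. The part of these movements in the differences of the endothelial genes was not tested.

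Among the 7 transcription factors and cofactors, 1 fell, 3 fell with the replicate block, and none rose in either fit. The list's median log2 difference was -0.23. Ldb2 encodes an adaptor that binds LIM-domain proteins and joins them in transcription complexes with GATA and SCL factors. Its level was 9.10, 9.27, 9.50 and 9.32 log2 on control 1 to 4 and 8.74, 8.78, 8.91 and 8.70 on jasplakinolide 1 to 4. The groups did not overlap, and replicate 3 was the highest of each. The difference was -0.51 ± 0.08 (SE; adjusted p = 0.0312), 1.43-fold lower. With 1 array left out Ldb2 passed in 2 fits of 8, those without control 1 or control 2, and had an adjusted p of up to 0.120 in the others.

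The SOXF genes Sox7, Sox17 and Sox18 encode related HMG-box factors of arterial and lymphatic endothelium. Sox18 was at 9.92, 10.18, 10.42 and 10.28 log2 on control 1 to 4 and at 9.73, 9.68, 9.88 and 9.69 on jasplakinolide 1 to 4. The groups did not overlap, but control 1 lay close to jasplakinolide 3 (9.92 and 9.88). The difference of -0.45 ± 0.10 (SE), 1.37-fold, missed the threshold (adjusted p = 0.0877) and passed with the replicate block (0.0424) and without control 1 (0.0228). Sox7 went from 10.72 ± 0.02 to 10.50 ± 0.11 log2 (SD, n = 4 each), with all treated arrays below all control arrays, and did not pass (adjusted p = 0.153, and 0.105 with the block). Sox17 was at 9.22, 9.11, 9.21 and 9.23 on control 1 to 4 and at 9.22, 9.12, 9.21 and 9.21 on jasplakinolide 1 to 4. Replicate 2 was the lowest of each group, and the 95% confidence interval of the difference ran from -0.11 to 0.10.

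Erg and Fli1 encode closely related ETS factors that maintain endothelial gene expression. Fli1 was at 10.49, 10.56, 10.49 and 10.47 log2 on control 1 to 4 and at 10.27, 10.30, 10.19 and 10.09 on jasplakinolide 1 to 4. Its groups did not overlap, and jasplakinolide 4 was the lowest array. The difference of -0.29 ± 0.06 (SE), 1.22-fold, missed the threshold (adjusted p = 0.0548) and passed with the replicate block (0.0349). Erg was at 11.28, 11.34, 11.24 and 11.28 on control 1 to 4 and at 11.29, 11.31, 11.26 and 11.24 on jasplakinolide 1 to 4. Its groups covered the same range, and the 95% confidence interval of its difference was -0.10 to 0.084. Tal1, a basic helix-loop-helix factor of blood and endothelial development, differed by 0.066 ± 0.066 (SE).

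To set related genes against each other, the gap between their log2 values was taken within each array for 7 pairs of the same family or the same receptor system. These pairs were chosen with the values known, and the size of a gap reflects the probe sets, so only its change is of use. The gap of Fli1 to Erg was -0.79, -0.78, -0.76 and -0.82 on control 1 to 4 and -1.02, -1.01, -1.07 and -1.16 on jasplakinolide 1 to 4, a change of -0.28 in Fli1 against Erg. The gaps of Sox18 to Sox17 (change -0.45) and of Sox7 to Sox17 (change -0.22) also had groups that did not overlap. Each of these 3 had an exact two-sided permutation p = 0.0286, the smallest that 4 arrays against 4 allow. Adjusted over the 7 pairs, this permutation p was 0.0667. The smallest p limits how far an adjusted p can fall, so missing 0.05 here decides nothing about the gaps. The unadjusted permutation p-values decide nothing either, as the pairs were chosen with the values known. Sox18 against Sox7 changed by -0.23 with overlapping groups (exact permutation p = 0.114, adjusted 0.160). Ramp2 against Calcrl, Mmrn2 against Mmrn1 and Apln against Aplnr changed by -0.018, -0.19 and -0.23 (exact permutation p = 0.857, 0.0857 and 0.371; adjusted 0.857, 0.150 and 0.433).

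**Figure D3:**
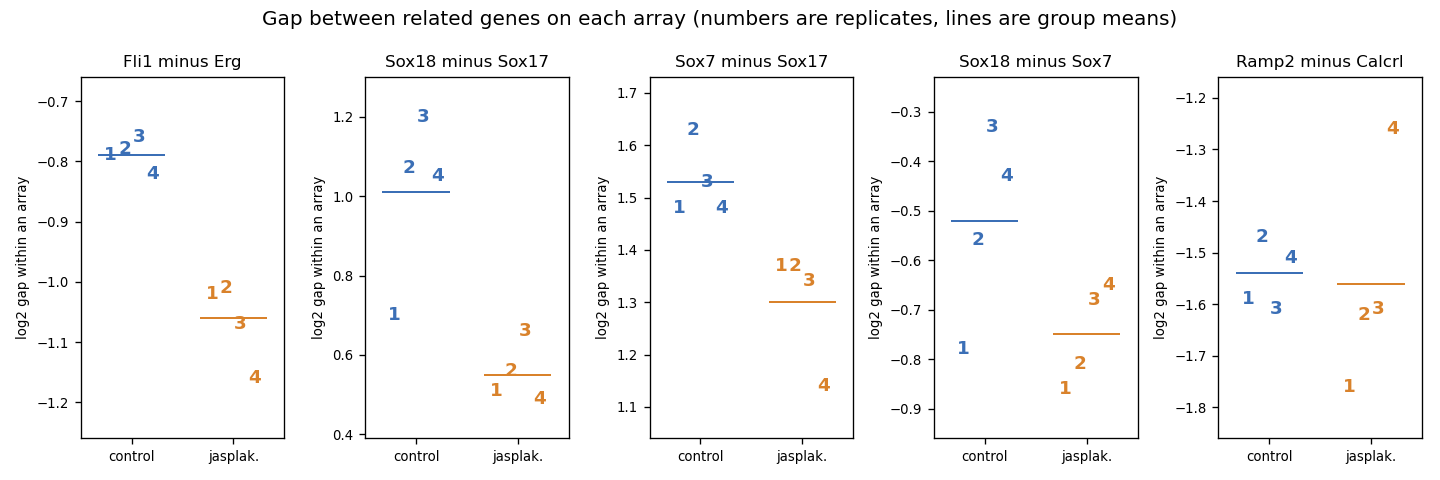
Gap between the log2 values of related genes on each array, with replicate numbers as points and group means as lines, each panel on its own axis. In the 3 panels on the left all treated arrays lie below all control arrays, and in the panels of Sox18 to Sox7 and Ramp2 to Calcrl the groups overlap.

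Of 7 junction and adhesion genes 1 fell, Rasip1, and none rose (median log2 difference -0.078). Rasip1 encodes a Ras-interacting protein that endothelial cells need to form vessel lumens. It was at 9.73, 9.88, 10.00 and 9.90 log2 on control 1 to 4 and at 9.46, 9.39, 9.60 and 9.38 on jasplakinolide 1 to 4. As for Ldb2, replicate 3 was the highest array of each group and control 1 the lowest control. The difference was -0.42 ± 0.07 (SE; adjusted p = 0.0359), 1.34-fold lower, and with 1 array left out it passed in 2 fits of 8, those without control 1 and without jasplakinolide 3 (adjusted p up to 0.142 in the others).

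The structural genes of the junction differed by less. Cdh5 had groups that did not overlap, with 13.14 and 13.13 as the nearest arrays, and a difference of -0.078 ± 0.045 (SE; 95% confidence interval -0.18 to 0.024). Pecam1, the adhesion molecule CD31, was at 12.50, 12.45, 12.47 and 12.50 log2 on control 1 to 4 and at 12.37, 12.36, 12.33 and 12.20 on jasplakinolide 1 to 4. All treated arrays were lower, but the difference of -0.16 ± 0.05 (SE) did not pass (adjusted p = 0.262). Cldn5, a claudin of tight junctions, was at 7.51, 7.91, 7.87 and 7.85 on control 1 to 4 and at 7.71, 7.67, 7.67 and 7.91 on jasplakinolide 1 to 4, so that the groups overlapped widely. Icam2, a ligand of leukocyte integrins, differed by -0.14 ± 0.07 (-0.082 without jasplakinolide 4), and Esam, an adhesion molecule of the same junctions, by 0.0099 ± 0.0604 (SE). Sele, the leukocyte adhesion receptor E-selectin of activated endothelium, was at 10.54, 10.55, 10.40 and 10.37 on control 1 to 4 and at 10.60, 10.60, 10.74 and 10.48 on jasplakinolide 1 to 4. Its groups overlapped, and its difference was 0.14 ± 0.07 (SE; adjusted p = 0.615).

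Among 19 surface receptors and glycoproteins 2 fell, 4 fell with the replicate block, and none rose (median log2 difference -0.050). Robo4, a Roundabout receptor of endothelial cells that stabilises vessels, was at 9.45, 9.54, 9.55 and 9.49 log2 on control 1 to 4 and at 9.12, 9.13, 9.19 and 8.95 on jasplakinolide 1 to 4. The nearest arrays of the groups were 9.45 and 9.19. Its difference of -0.41 ± 0.06 (SE; adjusted p = 0.0170), 1.33-fold lower, had the lowest p of the 40 genes, and with 1 array left out it passed in 4 fits of 8. The fits lacking control 3 or 4, or jasplakinolide 1 or 2, gave adjusted p = 0.0580 to 0.0729.

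Ramp2 and Calcrl encode the subunits of the adrenomedullin receptor of endothelial cells, RAMP2 being the accessory protein of the receptor CALCRL. Ramp2 was at 8.51, 8.57, 8.49 and 8.49 log2 on control 1 to 4 and at 8.30, 8.27, 8.25 and 8.14 on jasplakinolide 1 to 4. The groups were well apart for their spread, and the difference was -0.28 ± 0.05 (SE; adjusted p = 0.0427), 1.21-fold lower. Leaving out any 1 array ended the call (adjusted p up to 0.145), as did median centring (0.0506). Calcrl went from 10.06 ± 0.05 to 9.80 ± 0.29 (SD, n = 4 each), a difference of -0.26 ± 0.12 (SE) that became -0.12 without jasplakinolide 4.

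Cyyr1, a cysteine- and tyrosine-rich membrane protein, and Lyve1, a hyaluronan receptor of lymphatic endothelium and some macrophages, fell with the replicate block only. Cyyr1 was at 9.10, 8.98, 8.95 and 8.96 log2 on control 1 to 4 and at 8.74, 8.57, 8.54 and 8.16 on jasplakinolide 1 to 4. All treated arrays were lower and jasplakinolide 4 the lowest by far, and the difference of -0.49 ± 0.11 (SE; adjusted p = 0.0899, and 0.0416 with the block) was -0.38 without it. Lyve1 was at 7.03, 7.20, 7.08 and 7.07 on control 1 to 4 and at 6.75, 6.91, 6.82 and 6.73 on jasplakinolide 1 to 4. Its groups did not overlap, and its difference was -0.29 ± 0.06 (SE; adjusted p = 0.0558, and 0.0256 with the block). The treated arrays lay near the 95th olfactory percentile of 6.76.

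**Figure D4:**
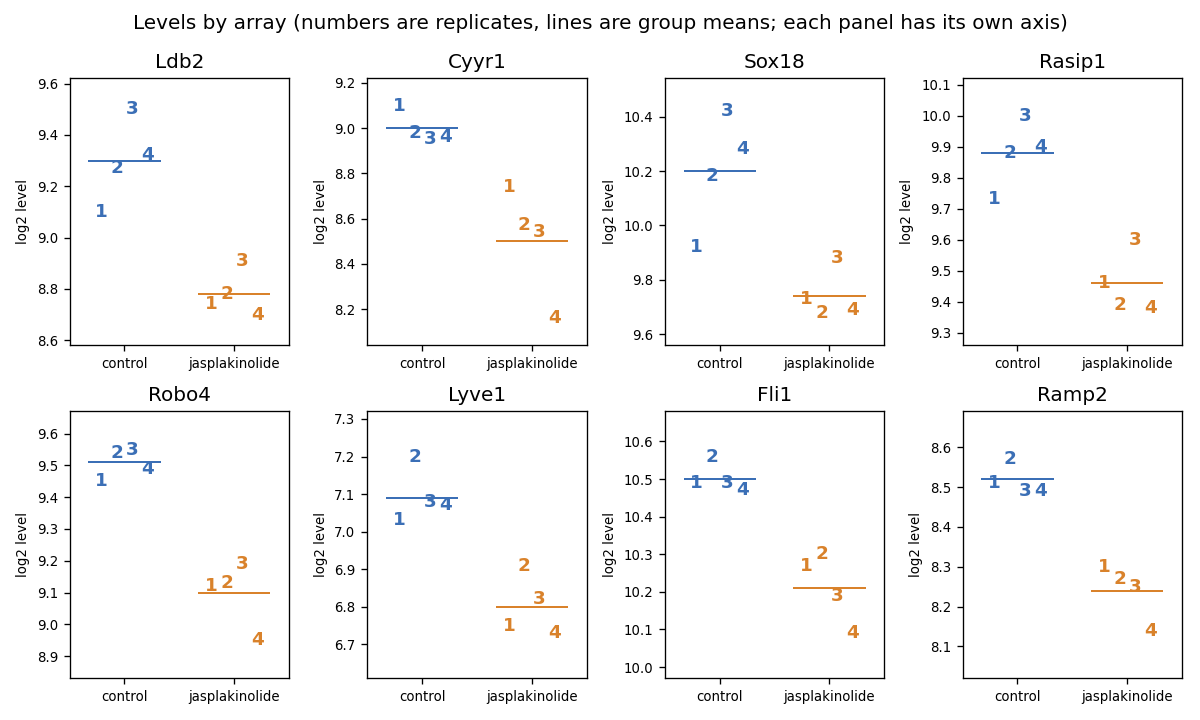
Log2 level on each array of the 8 genes that fell in either fit, with replicate numbers as points, group means as lines and an axis of its own for each gene. In each panel all 4 jasplakinolide arrays (orange) lie below all 4 control arrays (blue), with jasplakinolide 4 the lowest treated array in all panels but that of Sox18.

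The other receptors and glycoproteins did not pass in either fit. Cd93, a C-type lectin receptor of endothelial and myeloid cells, was at 12.43 to 12.49 log2 in control and at 12.50 to 12.57 with jasplakinolide, the only one of the 40 with all treated arrays above all controls, by 0.074 ± 0.041 (SE; adjusted p = 0.688). Adgrl4, an adhesion G protein-coupled receptor of endothelium, had overlapping groups and a difference of 0.11 ± 0.05 (SE; adjusted p = 0.528). Aplnr, the receptor of the peptide apelin, differed by 0.16 ± 0.13 (SE), the highest value of the 40, but by 0.11 without jasplakinolide 4, below Sele (0.18) and Adgrl4 (0.13). It was at 6.69, 7.25, 6.74 and 7.14 on control 1 to 4 and at 7.15, 7.06, 6.98 and 7.30 on jasplakinolide 1 to 4, with overlapping groups at the dim end. Clec14a, another lectin-domain receptor of endothelium, differed by -0.26 ± 0.14 on spread-out arrays (7.14 to 7.70 in control).

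Podxl and Cd34, related sialomucins of the vessel lining, differed by -0.24 ± 0.14 and -0.22 ± 0.10, and Plvap, the protein of endothelial diaphragms, by -0.15 ± 0.08 (SE). Without jasplakinolide 4 these became -0.092, -0.13 and -0.071. Eng (endoglin, a coreceptor of TGF-beta family ligands), S1pr1 (a receptor of sphingosine-1-phosphate), Ptprb (the phosphatase VE-PTP that acts on TIE2 and VE-cadherin) and Emcn differed by -0.046, -0.044, -0.028 and -0.050. The 95% confidence intervals of these 4 ended at -0.24 or above. Myct1, Ecscr and Gpihbp1, the anchor of lipoprotein lipase on capillaries, differed by -0.0089, 0.028 and 0.033.

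None of 7 secreted products and enzymes passed in either fit (limma; Egfl7 alone at an unadjusted p under 0.05), and their median log2 difference was -0.14, or -0.029 without jasplakinolide 4. Egfl7, a matrix protein that endothelial cells secrete, was at 11.71 to 11.85 log2 in control and at 11.45 to 11.65 with jasplakinolide, groups that did not overlap, with a difference of -0.20 ± 0.06 (SE; adjusted p = 0.208, and 0.0638 with the block). Mmrn2, the matrix ligand of CLEC14A and CD93, differed by -0.14 ± 0.07, also without overlap, and by -0.076 without jasplakinolide 4. Nos3, which encodes the endothelial nitric oxide synthase, differed by -0.18 ± 0.12 and Esm1, a proteoglycan of sprouting endothelium, by -0.14 ± 0.12 (SE). Without jasplakinolide 4 they differed by -0.070 and -0.029. Vwf, the clotting factor stored in endothelial granules, was at 7.86, 8.01, 8.29 and 8.17 on control 1 to 4 and at 7.90, 7.98, 8.30 and 8.40 on jasplakinolide 1 to 4. Its arrays were spread alike in both groups, with replicates 3 and 4 the highest of each, and the difference was 0.065 ± 0.127 (SE). Apln (apelin) differed by -0.066 ± 0.105 and Mmrn1 by 0.048 ± 0.083.

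The treated arrays were not alike. Jasplakinolide 4 was the lowest treated array for 30 of the 40 genes, and the lowest of all 8 for 25. It was also the lowest treated array for 53.3% of the genes above the 99th olfactory percentile. The median deviation of the 40 genes from their control means was -0.021, -0.041, -0.11 and -0.29 log2 on jasplakinolide 1 to 4, and between -0.026 and 0.025 on the control arrays. Without jasplakinolide 4 the median log2 difference of the 40 was -0.061 and 26 of them had a lower mean. For contractile smooth muscle genes the median deviation was between 0.48 and 0.58 on the 4 treated arrays, with jasplakinolide 4 the lowest, and for mitosis genes between -0.36 and -0.26. Without jasplakinolide 4 Robo4 alone of the 40 passed (0.0903% of all genes passed as lower there), while the differences of Ldb2, Rasip1, Sox18 and Fli1 were -0.49, -0.39, -0.44 and -0.24.

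**Figure D5:**
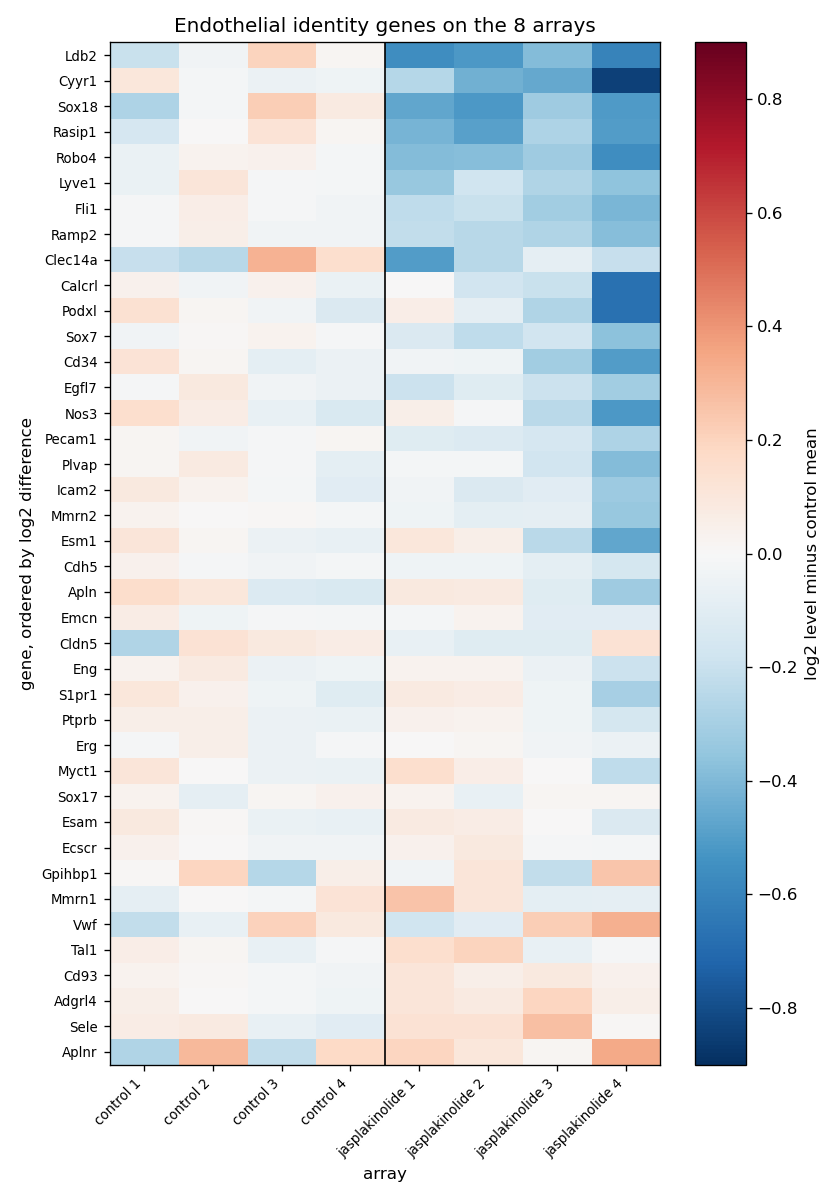
Log2 level minus the control mean of the gene, for the 40 genes (rows, ordered by log2 difference) on the 8 arrays (columns), with blue for lower and red for higher. The top 8 rows are blue on all 4 jasplakinolide arrays, and further rows, such as Calcrl, Podxl and Nos3, are dark blue on jasplakinolide 4 alone.

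Promoters are shown for members on both sides of the result, since Fli1, which fell with the replicate block, encodes an ETS factor. RefSeq start sites (GRCm38.p6) gave a promoter for 18 of the 40 genes. The 250 bases before the start were searched on both strands for AGGAAG, a core of ETS sites. Of the 18 genes 12 held it, against 32.3% of 27025 genes with a promoter (29.5% of 32851 windows). The sequences of Robo4 and Rasip1, which fell, of Cyyr1, which fell with the block only, and of Emcn and Adgrl4, which did not pass, run 5′ to 3′ on the strand of the gene, with matches in capitals (CTTCCT is a match on the other strand).
Robo4, chr9:37401722-37401971, strand +: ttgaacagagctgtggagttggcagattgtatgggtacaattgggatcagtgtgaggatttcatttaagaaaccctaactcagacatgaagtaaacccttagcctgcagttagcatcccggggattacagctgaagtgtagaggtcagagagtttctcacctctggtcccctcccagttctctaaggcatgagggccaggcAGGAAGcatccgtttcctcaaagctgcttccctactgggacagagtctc
Rasip1, chr7:45627287-45627536, strand +: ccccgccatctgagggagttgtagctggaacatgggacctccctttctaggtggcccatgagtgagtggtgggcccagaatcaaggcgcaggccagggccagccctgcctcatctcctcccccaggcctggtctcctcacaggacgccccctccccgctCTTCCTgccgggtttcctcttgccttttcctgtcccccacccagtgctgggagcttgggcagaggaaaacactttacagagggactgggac
Cyyr1, chr16:85550374-85550623, strand -: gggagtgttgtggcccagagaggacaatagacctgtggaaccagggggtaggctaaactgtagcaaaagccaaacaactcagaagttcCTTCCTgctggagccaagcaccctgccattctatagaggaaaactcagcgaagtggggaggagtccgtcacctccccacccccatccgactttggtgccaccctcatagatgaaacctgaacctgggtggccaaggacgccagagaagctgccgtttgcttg
Emcn, chr3:137340828-137341077, strand +: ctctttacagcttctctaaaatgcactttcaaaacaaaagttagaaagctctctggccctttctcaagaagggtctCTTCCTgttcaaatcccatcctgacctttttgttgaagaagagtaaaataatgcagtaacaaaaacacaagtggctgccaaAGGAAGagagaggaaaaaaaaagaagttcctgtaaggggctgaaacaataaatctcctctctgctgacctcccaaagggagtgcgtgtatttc
Adgrl4, chr3:151437632-151437881, strand +: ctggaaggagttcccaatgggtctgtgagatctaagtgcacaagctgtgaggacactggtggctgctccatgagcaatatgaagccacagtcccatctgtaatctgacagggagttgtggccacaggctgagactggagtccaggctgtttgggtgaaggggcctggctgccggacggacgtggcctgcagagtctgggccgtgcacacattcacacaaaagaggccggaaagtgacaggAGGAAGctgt
The match ended 43 bases before the start site in Robo4, 85 in Rasip1, 156 in Cyyr1 and 4 in Adgrl4, and Emcn held matches ending 168 and 87 bases before it. The promoters shown, of genes that fell and of genes that did not, are all from the 12 genes that held the letters. That each of them holds a match is therefore no result. Of the 18 genes, 3 had fallen in either fit, and all 3 held the match. The other genes that fell in either fit had no promoter here. Whether the match goes with a fall was not tested. AACAAT, a SOX core, was in 4 of the 18 genes (10.9% of all genes), among them Emcn, and GGAATG, a TEAD core that shares 4 letters with the ETS core, in 3 (14.4%). The CArG box of serum response factor was in 0 of the 18 and in 1.62% of all genes. A match is a stretch of letters and no measure of binding.

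Of 47 measured genes of a further endothelial list (49 listed) 1 rose and none fell, with a median log2 difference of -0.10, or -0.046 without jasplakinolide 4. At an unadjusted p under 0.05 (limma) 16 of the 47 were lower and 3 higher, against 4.71% and 4.16% of all genes. Their mean was lower with jasplakinolide for 35, against 43.6% of all genes. The groups did not overlap for 9 that were lower and 4 that were higher (3.29% and 3.62% of all genes). The gene that rose was Nrp2, a coreceptor of VEGF-C and semaphorins, from 8.31 ± 0.14 to 8.96 ± 0.12 log2 (SD, n = 4 each), by 0.65 ± 0.08 (SE; adjusted p = 0.00825), and it passed whichever array was left out. With the replicate block 6 of the 47 fell and 2 rose (0.813% of all genes rose with the block). The largest falls with the block were those of the adhesion molecule Jam2 (-0.47 ± 0.13, SE of the fit without the block), the kinase Bmx (-0.47 ± 0.16) and the VEGF receptor Kdr (-0.45 ± 0.15), at adjusted p = 0.0280, 0.0410 and 0.0424 with the block and 0.197, 0.324 and 0.323 without. Without jasplakinolide 4 the difference of Kdr was -0.29. None of 26 other transcription factors with roles in endothelium passed in any fit (limma; 3 lower and 1 higher at an unadjusted p under 0.05, where 4.71% and 4.16% of all genes are), and their median was -0.037, or -0.014 without jasplakinolide 4. Gata2 differed by 0.0082 ± 0.0692 and Ets1 by -0.058 ± 0.059, and Lmo2, a partner of TAL1 and LDB proteins, by -0.24 ± 0.10 (SE; adjusted p = 0.492). The last 6 genes named were chosen after their values were seen.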

How the data were processed

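The files hold deposited log2 values for 35556 probe sets on 8 arrays (2.29 to 14.2). Per the submitters' processing notes they come from RMA, run in Expression Console of Affymetrix, with versions not given in the sources used here. RMA includes a quantile step that takes out most of any shift common to all transcripts, though array medians still ranged from 7.30 to 7.39. The platform annotation gave 1 gene symbol to 21789 probe sets, several to 1621 and none to 12146, and only the first were used. A gene kept its probe set of highest mean, which left 19938 genes. A further probe set that names Ramp2 with another gene was not used.

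The main test was limma 3.58.1 under R 4.3.3 (lmFit and eBayes, two-sided, residual degrees of freedom 6, prior 3.43) without a block. P-values were adjusted by Benjamini-Hochberg over the 19938 genes, and a gene is said to have fallen or risen at an adjusted p under 0.05. The fit was tested on simulated data. Errors are SEs from limma or SDs, as named. Exact permutation tests of single gaps used all 70 splits of the arrays. Precision is limited by the number of arrays, 4 per group. Python 3.11.15 and matplotlib 3.10.9 made the figures.

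The genes and lists were chosen with earlier results of these data known. Values on every array are given for genes past the test with or without the block, for the 4 lowest and 2 highest differences, and for Pecam1, Cdh5, Vwf, Erg, Fli1, Cldn5, Sox17 and Lyve1. From other lists, up to 4 genes past the test and the 2 brightest markers of a cell type are named. Both groups use replicate numbers 1 to 4. After subtraction of group means, control and jasplakinolide arrays with the same number correlated at 0.241 to 0.563 over genes. Control and jasplakinolide arrays with other numbers correlated at -0.618 to 0.521. All 4 same-numbered correlations were over 0.1, so the numbers were taken to pair the arrays, which the labels do not state. Yet only 6 of 8 arrays correlated best with their own number, as control 2 and jasplakinolide 4 did so with each other (0.521). Control 1 with jasplakinolide 2 (0.129) and 3 (0.234), and control 3 with jasplakinolide 1 (0.165), were over 0.1 too, so that mark does not single out pairs. Alternatives were the replicate block, removal of dim genes, other scalings, a trend with intensity and robust prior, weights per array, averaged probe sets, an adjusted p under 0.01 and leaving out arrays.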

Additional observations from a re-analysis of the deposited data

Results flagged for a closer look

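Within a group of 4 arrays, a value was singled out where its gap to the nearest other array took more than 0.829 of the group's range. This was checked in 80 groups, where chance alone singles out about 1 in 20, and 4 were found. Cldn5 on control 1 (7.51 log2) lay below the other controls (7.85 to 7.91). Sox17 was low on control 2 (9.11, against 9.21 to 9.23) and on jasplakinolide 2 (9.12, against 9.21 to 9.22). Mmrn2 on jasplakinolide 4 (12.03) lay below the other treated arrays (12.28 to 12.33).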

How the results depend on the processing

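The count of endothelial genes that fell, 4, was 8 with the replicate block or with array weights, 7 among the brighter 50% of genes or after another quantile normalization, 10 with an intensity trend and robust prior, 1 without control 2 and jasplakinolide 4 together, 0 at an adjusted p under 0.01 (limma; 11 lower and 1 higher at an unadjusted p under 0.05), and 0 to 4 with 1 array left out. None rose in any of these. The count over all genes in both directions, 154, was 377 with the replicate block, 296 among the brighter 50% or after quantile normalization, 297 after cyclic loess, 358 with the trend, 457 with array weights, 45 at an adjusted p under 0.01 and 43 to 150 with 1 array left out. The count over all genes that fell, 67, was 215 with the replicate block, 234 with array weights and 165 with the trend. It was 141 among the brighter 50% and 167 after quantile normalization. The count of further endothelial genes, 1, was 8 with the replicate block, 9 with array weights, 5 after cyclic loess, 4 after quantile normalization, 3 with the trend or among the brighter 75% or 50%, and 2 after median centring. It stayed at 1 with any array left out, and that of other transcription factors at 0 in all. The median log2 difference of the 40 genes was -0.11, -0.044 with array weights, -0.046 without control 2 and jasplakinolide 4, and -0.15 to -0.061 with 1 array left out.

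Of 754 recomputed differences of the 40 genes 43 changed sign, for 12 genes that had not passed and by sizes up to 0.0781. With array weights these were Apln (0.078), Eng (0.019), Erg (0.0069), Esm1 (0.0021), Myct1 (0.076), Ptprb (0.037), S1pr1 (0.070) and Vwf (-0.078). Without control 2 and jasplakinolide 4 they were Apln (0.054), Eng (0.026), Erg (0.017), Myct1 (0.066), Ptprb (0.033), S1pr1 (0.053) and Vwf (-0.043). After median centring they were Erg (0.0021), Myct1 (0.0035) and Sox17 (0.010), after quantile normalization Esam (-0.0011) and Sox17 (0.015), and after cyclic loess Esam (-0.0053) and Sox17 (0.0076). With 1 array left out the ranges that crossed 0 were those of Apln (-0.12 to 0.019), Eng (-0.071 to 0.0011), Erg (-0.025 to 0.0064), Esam (-0.014 to 0.054), Gpihbp1 (-0.053 to 0.12), Mmrn1 (-0.022 to 0.094), Myct1 (-0.060 to 0.066), Ptprb (-0.053 to 0.016), S1pr1 (-0.086 to 0.040), Sox17 (-0.030 to 0.021) and Vwf (-0.018 to 0.15). The cause of these changes was not tested. Detection calls were not used here, so dim genes such as Mmrn1 are limited by background signal.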

Other observations

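Of 16 genes linked to the change of endothelial into mesenchymal cells, 2 rose and none fell, with a median log2 difference of 0.039, which turned to -0.0043 without jasplakinolide 4. They were Tagln, by 0.55 ± 0.04, and Acta2, by 0.25 ± 0.04 (SE), which are also contractile smooth muscle genes; with 1 array left out Acta2 passed in 0 fits and Tagln in 8. The transcription factors Snai1, Zeb1 and Zeb2, which repress junction genes, differed by -0.10 ± 0.04, 0.13 ± 0.05 and 0.12 ± 0.05 and did not pass (adjusted p = 0.536, 0.514 and 0.536). The factors Snai2 and Twist1 differed by 0.061 ± 0.135 and 0.028 ± 0.048 (SE) and did not pass either.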
